A study of Mus musculus with 72 samples.

Results

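Fkbp5, Sgk1, Tsc22d3, Zbtb16, Mt1, Mt2, Cdkn1a, Pdk4, Plin4 and Sult1a1, genes known as targets of glucocorticoid signalling or grouped with them, were followed through RNA-seq of the suprachiasmatic nucleus (SCN), the brain's central clock. They are 10 of the 24883 rows of the gene tables. The members were chosen by name with earlier results of these libraries in view: Fkbp5 for its rhythm on the 2 diets and Sult1a1 for its level on the 2 diets, both in LD. The others were listed as known glucocorticoid-responsive genes, and which earlier results were in view for them is not known. The diet comparisons of the members in LD are therefore given as a description, with no p-value. On the -Trp diet in LD, Fkbp5, Sgk1, Tsc22d3, Mt2, Cdkn1a, Plin4 and Sult1a1 were higher at ZT16 in every library than in any library of the Ctrl diet. In DD, the levels of Sult1a1, Plin4, Sgk1, Mt1, Mt2 and Tsc22d3 were also higher on the -Trp diet, while Fkbp5 and Zbtb16 had nearly the same mean level on both diets.

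Glucocorticoids are steroid hormones of the adrenal cortex whose secretion follows a daily rhythm, highest in nocturnal animals around the onset of darkness, and rises with stress or fasting. They enter cells and bind the glucocorticoid receptor (Nr3c1), which moves to the nucleus and binds glucocorticoid response elements (GREs) near its target genes. Fkbp5, Sgk1, Tsc22d3 (also called Gilz) and Zbtb16 are widely used as markers of the hormone's action in brain and other tissues, and adult SCN neurons are known for a low level of the receptor.

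RNA came from the SCN of male C57BL/6 mice, 8 weeks old before acclimation, in 4 groups of 18 libraries, named by diet and light schedule (Ctrl LD and -Trp LD, then Ctrl DD and -Trp DD). The Ctrl diet was matched in nitrogen to the diet without tryptophan (-Trp), and both were eaten freely for 2 weeks after 1 week alone in the cage with 12 h of light each day (LD) or in constant darkness (DD). Each group was sampled at 6 times, 4 h apart, given as Zeitgeber time (ZT, hours after lights on) in LD and circadian time (CT) in DD, with 3 mice per time. The SCN is a small nucleus and the tissue holds neighbouring cells, so a lower share of a cell type and less RNA per cell cannot be told apart.

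The values are FPKM, fragment numbers scaled by transcript length and by library size, and without read numbers their depth is unknown. The columns of the tables and those of the study's own table of oscillating genes disagree on which library is which. All 36 Ctrl columns of that table equalled a deposited column of another group and time, within a relative tolerance of 0.0001 over 124 to 1939 genes, with a constant shift of 12 columns, and at most 0.104% of values equalled the column of the same name. The order of the study's table was used, with the 36 -Trp libraries placed by continuing the shift. In the order used, the sum of FPKM was 403066 or more in all 36 LD libraries. It was 353587 or less in 35 DD libraries and 411944 in 1 library of -Trp DD. With the columns as named, Ctrl LD and Ctrl DD each held time points from both ranges. Which of the orders belongs to the mice was not tested. In the order used, the clock-controlled gene Dbp had its highest mean at ZT12 in both LD groups (36.2 and 36.9 FPKM). In DD it was highest at CT20 on Ctrl (23.3 FPKM, beside 22.8 at CT8) and at CT4 on -Trp (21.9, beside 21.4 at CT16). With the columns as named it was highest at 4 h in Ctrl LD, 12 h in -Trp LD, 20 h in Ctrl DD and 4 h in -Trp DD. Every result on diet, light and time below depends on this choice. With the columns as named, the direction of the diet difference in LD turns in 9 of the 10 members.

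RefSeq promoters (GRCm38.p6) were scanned for 4 motifs on both strands of the 250 bases before each start, and 9 of the 10 members, all but Zbtb16, were matched, with 17 starts. The first motif was a GRE spelled as GNACA and its reverse complement TGTNC with 3 bases of any kind between them. The others were its hexamer AGAACA, the pattern TGCNCNC, and the E-box CACGTG bound by Clock and Bmal1. TGCNCNC is a loose spelling of the metal response core bound by the zinc sensor Mtf1, so a match need not be such a core. The hexamer can lie within a GRE. The windows of 5 members are shown because each holds a motif of a regulator known for it or is that of 1 of the 2 genes the set is named for, and they were picked after the scan. Capitals mark motif matches, and letters are 5′ to 3′ on the gene's strand.
Sgk1, start 5 of 6, chr10:21993640-21993889, plus strand: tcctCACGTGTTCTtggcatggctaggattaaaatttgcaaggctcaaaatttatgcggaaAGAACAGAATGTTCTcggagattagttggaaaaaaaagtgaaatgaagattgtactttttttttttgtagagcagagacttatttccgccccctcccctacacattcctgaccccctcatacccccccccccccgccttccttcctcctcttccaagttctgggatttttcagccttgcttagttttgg
Mt1, chr8:94178839-94179088, plus strand: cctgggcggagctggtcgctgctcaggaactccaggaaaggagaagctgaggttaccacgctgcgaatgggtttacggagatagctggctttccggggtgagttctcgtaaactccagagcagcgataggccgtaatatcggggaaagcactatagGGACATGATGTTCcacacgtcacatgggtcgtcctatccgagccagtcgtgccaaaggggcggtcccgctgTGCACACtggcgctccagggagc
Mt2, chr8:94172368-94172617, plus strand: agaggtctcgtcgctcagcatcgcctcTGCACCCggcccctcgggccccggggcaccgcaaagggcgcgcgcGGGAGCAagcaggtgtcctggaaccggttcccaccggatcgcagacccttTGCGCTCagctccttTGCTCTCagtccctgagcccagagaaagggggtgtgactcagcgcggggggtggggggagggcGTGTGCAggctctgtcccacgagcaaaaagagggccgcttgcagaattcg
Fkbp5, chr17:28486150-28486399, minus strand: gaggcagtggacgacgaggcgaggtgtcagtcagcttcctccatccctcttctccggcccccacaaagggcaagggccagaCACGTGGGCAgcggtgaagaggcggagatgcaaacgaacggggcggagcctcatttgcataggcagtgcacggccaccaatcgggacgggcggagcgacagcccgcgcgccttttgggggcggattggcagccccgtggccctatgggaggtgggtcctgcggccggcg
Sult1a1, chr7:126676419-126676668, minus strand: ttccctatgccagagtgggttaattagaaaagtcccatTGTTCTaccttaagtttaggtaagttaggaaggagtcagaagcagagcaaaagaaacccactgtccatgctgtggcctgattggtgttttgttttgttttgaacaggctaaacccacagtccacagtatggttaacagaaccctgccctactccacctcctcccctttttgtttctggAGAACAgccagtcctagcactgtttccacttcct

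The GRE pattern was found in 0.39% of 32536 promoter windows of the same length and in 2 of the 17 windows of the members. These were Sgk1, with GAACAGAATGTTC at 188 to 176 bases before the start, and Mt1, with GGACATGATGTTC at 94 to 82 bases. Around the Sgk1 match the hexamer AGAACA occurs on both strands, and a further hexamer overlaps the E-box near the far end of the window. AGAACA was present in 16.0% of all windows and in 5 of the 17, in Sgk1, Tsc22d3 and Sult1a1, the last with 2 matches. The loose pattern TGCNCNC was found in 44.7% of all windows, and 4.68% held 3 or more. It was in 7 of the 17 member windows, or 41.2%, and Mt2 held 5 matches to it and Plin4 held 3. The E-box was found in 6.04% of all windows and in Fkbp5 and Sgk1, and in Fkbp5 it overlaps a match to TGCNCNC. Glucocorticoid receptor sites often lie far from a start, so a window without a match says only that these letters are not there.

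Fkbp5 (chromosome 17, 28399094 to 28517527, minus strand, in mm10) encodes a co-chaperone that lowers the hormone binding of the receptor in a feedback loop. On the -Trp diet in LD, Fkbp5 measured 15.8, 15.0 and 15.0 FPKM at ZT12, 15.4, 12.8 and 15.6 at ZT16 and 11.4, 8.21 and 15.0 at ZT20. On the Ctrl diet, the same times gave 10.5, 9.32 and 9.92, then 10.4, 8.35 and 11.3, then 7.62, 7.38 and 7.55 FPKM. At each of these 3 times the -Trp libraries all lay above the Ctrl libraries. At ZT0 the order was the opposite, with 6.62, 7.80 and 7.64 FPKM on -Trp below 8.33, 8.99 and 9.61 on Ctrl. The mean thus ranged 2.15-fold over the day on the -Trp diet and 1.33-fold on the Ctrl diet.

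Sgk1 (chromosome 10, 21882184 to 21999903, plus strand) encodes a kinase of ion transport and cell survival that is induced by glucocorticoids. It reached 19.3, 31.8 and 36.1 FPKM at ZT12 on the Ctrl diet and was back at 11.4, 12.9 and 8.98 at ZT16. On the -Trp diet Sgk1 was at 42.6, 46.7 and 26.7 FPKM at ZT12 and still at 46.9, 34.0 and 41.1 at ZT16. The diets overlapped at ZT12 and were apart at ZT16, where the mean on -Trp was 3.67 times that on Ctrl. Before ZT12 Sgk1 was low on both diets, with means between 7.46 and 15.8 FPKM.

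Tsc22d3 (chromosome X, 140539528 to 140600659, minus strand), a leucine zipper protein that carries part of the anti-inflammatory action of glucocorticoids, showed the same late separation. At ZT16 it measured 68.0, 74.2 and 64.0 FPKM on the Ctrl diet and 110.3, 91.3 and 117.6 on the -Trp diet, while the diets overlapped at the other 5 times. Zbtb16 (chromosome 9, 48654297 to 48836222, minus strand), a zinc finger transcription repressor, rose from 0.885 ± 0.057 FPKM (mean ± SD, n = 3) at ZT4 to 2.47 ± 0.56 at ZT12 on the Ctrl diet. On the -Trp diet it went from 0.994 ± 0.13 to 2.69 ± 1.68, and its diets overlapped at all 6 times. At ZT12 on -Trp, 1 library of Zbtb16 measured 4.64 FPKM and the other two 1.65 and 1.79.

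**Figure D1:**
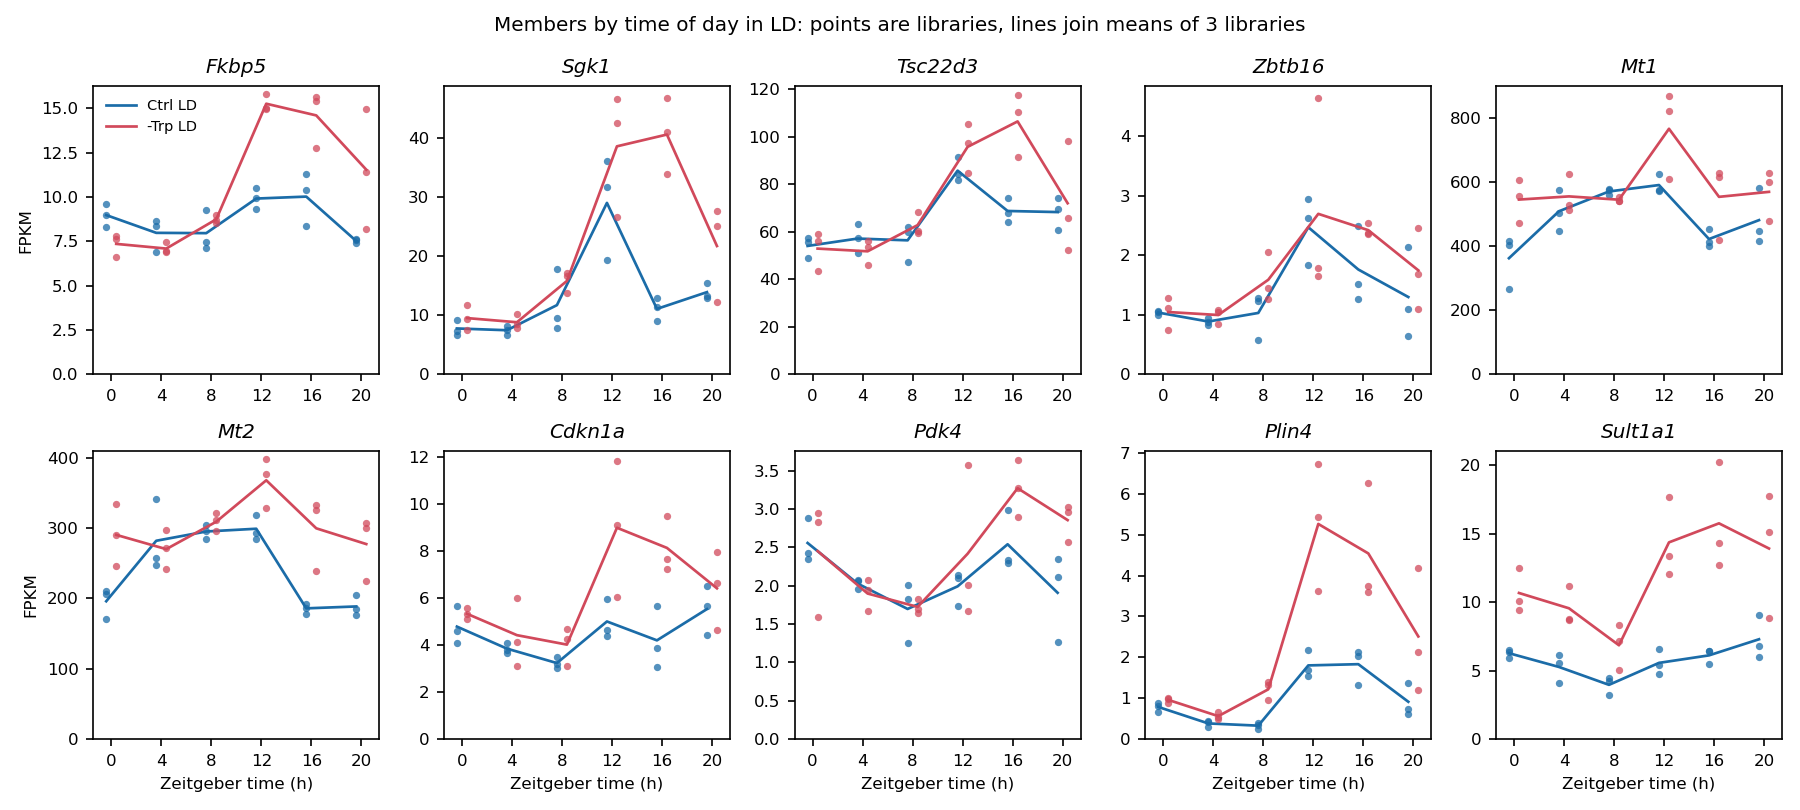
FPKM of the 10 members in LD against Zeitgeber time in hours, with a point for each library and lines through the means of 3 libraries for Ctrl LD (blue) and -Trp LD (red). All -Trp points of Fkbp5, Sgk1, Tsc22d3, Plin4 and Cdkn1a lie above the Ctrl points at 16 h, and those of Sult1a1 at 0, 4, 8, 12 and 16 h.

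Plin4, Pdk4 and Cdkn1a are genes of lipid storage, fuel choice and growth arrest that glucocorticoids also raise in many tissues. Plin4 (chromosome 17, 56100591 to 56109803, minus strand), a coat protein of lipid droplets, measured 6.73, 5.43 and 3.63 FPKM at ZT12 on the -Trp diet and 1.54, 2.17 and 1.69 on the Ctrl diet. It had the widest daily range of the members in LD, 9.38-fold between highest and lowest mean on -Trp and 5.58-fold on Ctrl. The diets were apart at ZT4, ZT8, ZT12 and ZT16 and overlapped at ZT0 and ZT20.

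Cdkn1a (chromosome 17, 29090976 to 29100727, plus strand), the cell cycle inhibitor p21, was at 11.8, 9.10 and 6.05 FPKM at ZT12 on -Trp and at 4.63, 4.39 and 5.98 on Ctrl. It was apart between the diets at ZT12 and ZT16 and overlapped at the other times. Pdk4 (chromosome 6, 5483351 to 5496309, minus strand), a kinase that limits the entry of glucose carbon into the citric acid cycle, stayed between 1.26 and 3.64 FPKM in all LD libraries. Its diets were apart at ZT20, with 2.96, 2.57 and 3.03 FPKM on -Trp against 2.12, 1.26 and 2.34 on Ctrl.

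Mt1 (chromosome 8, 94179082 to 94180327, plus strand) and Mt2 (chromosome 8, 94172664 to 94173568, plus strand) are adjacent genes for metallothioneins, small proteins that bind zinc and copper and are raised by metals and by glucocorticoids. They were by far the most abundant members per length, with medians of 478 and 229 FPKM in Ctrl LD. Their sequences are alike and an antisense gene, Gm45774, overlaps Mt2. How reads shared by such genes were counted is not given in the sources used here, so the split between them is uncertain. Mt2 on the Ctrl diet was at 319, 285 and 293 FPKM at ZT12 and fell to 178.5, 186.5 and 192.6 at ZT16, where -Trp libraries held 333.5, 239.2 and 326.4. The diets of Mt2 were apart at ZT0, ZT12, ZT16 and ZT20, in each case with -Trp higher. Mt1 was apart and higher on -Trp at ZT0 alone, and at ZT8 it was lower, with a mean of 545 against 570 FPKM.

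Sult1a1 (chromosome 7, 126672865 to 126676432, minus strand) encodes a sulfotransferase that adds sulfate to phenols, catechols and drugs. In Ctrl LD its 18 libraries ran from 3.21 to 9.07 FPKM with a median of 5.95, and in -Trp LD from 5.03 to 20.2 with a median of 11.6. At ZT16 it measured 5.48, 6.44 and 6.44 FPKM on Ctrl and 14.3, 12.8 and 20.2 on -Trp. Sult1a1 was apart between the diets at 5 of the 6 times and overlapped at ZT20, where 1 -Trp library was at 8.89 FPKM and the highest Ctrl library at 9.07. Its mean on -Trp was 1.70 times that on Ctrl at ZT0 and 1.81 times at ZT4, before the late rise of Sgk1 and Plin4. At ZT16 all 3 -Trp libraries lay above all 3 Ctrl libraries in 7 of the 10 members, against 3.65% of all 14425 genes, a count that the choice of the members in part fixed. At ZT0, ZT4, ZT8, ZT12 and ZT20 this held for 3, 2, 2, 5 and 3 members, against 2.58%, 4.51%, 4.83%, 5.01% and 4.11% of genes. At ZT0 and at ZT8 1 member had all -Trp libraries below, against 5.92% and 5.43% of genes.

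Daily rhythms were called with JTK_CYCLE, a rank test for a 24 h cycle, at p under 0.05. In Ctrl LD 6 of the 10 members were called, Mt2, Tsc22d3, Sult1a1, Plin4, Sgk1 and Zbtb16, against 10.9% of the genes tested. In -Trp LD 8 were called, against 11.1%: Sgk1, Fkbp5, Plin4, Tsc22d3, Zbtb16, Cdkn1a, Sult1a1 and Pdk4. The call for Pdk4 in -Trp LD was lost in 12 of the 18 fits that left out 1 library. Since Fkbp5 was chosen for its rhythm on these diets, the counts are a description. After Benjamini-Hochberg adjustment over all genes, 0 members were left in Ctrl LD and 5 in -Trp LD, which were Sgk1, Fkbp5, Plin4, Tsc22d3 and Zbtb16.

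The size of the rhythm was read from a cosine fit on log2(FPKM + 0.5), where the amplitude is the distance from the mean to the peak. Fkbp5 had an amplitude of 0.13 ± 0.053 (SE, 18 libraries) on Ctrl and 0.59 ± 0.067 on -Trp, with the fitted peak at 14.2 and 14.8 h. For Sgk1 the amplitude was 0.68 ± 0.16 and 1.19 ± 0.10, and for Plin4 it was 0.71 ± 0.11 and 1.23 ± 0.13. The fitted peaks of Fkbp5, Sgk1, Tsc22d3, Zbtb16 and Plin4 fell between 13.4 and 15.9 h on both diets, early in the dark phase. Mt2 had an amplitude of 0.41 ± 0.055 on Ctrl, peaking at 8.08 h, and 0.17 ± 0.068 on -Trp. Sult1a1 had its peak at 19.9 h on Ctrl and 17.3 h on -Trp, later than Fkbp5 on both diets.

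The difference in rhythm between the diets in LD, tested by limma as the interaction of diet with the 24 h cosine and sine, passed the adjusted threshold in 0.0% of 14202 genes, the 10 members among them. Over all genes, 456 had an unadjusted p under 0.05, and with time as a factor limma also called 0. The amplitude of the difference was 0.47 for Fkbp5, 0.57 for Plin4 and 0.58 for Sgk1, beside a median of 0.088 over all genes. Since Fkbp5 was chosen on this contrast, these values rank it by construction.

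Averaged over the day in LD, all 10 members had a higher mean on the -Trp diet. The log2 difference from limma, with time of day in the model, was 0.96 ± 0.095 (SE) for Sult1a1, 0.82 ± 0.12 for Plin4, 0.65 ± 0.14 for Sgk1, 0.41 ± 0.10 for Cdkn1a, 0.37 ± 0.072 for Mt2 and 0.29 ± 0.075 for Mt1. The other four, Fkbp5, Zbtb16, Pdk4 and Tsc22d3, had differences between 0.15 and 0.25. Of all genes, 0.563% passed the adjusted threshold with -Trp higher, and no call of a member is read here because the choice of members used this contrast. Markers of endothelial cells moved beside these genes. All 8 were measured, 1 of them passed the threshold as lower on -Trp, and their median log2 difference was -0.37. Their summed level ran from 19.2 to 89.1 FPKM in Ctrl LD and from 20.8 to 75.5 in -Trp LD, none was at 0 in all libraries, and their part in the result was not tested.

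**Figure D2:**
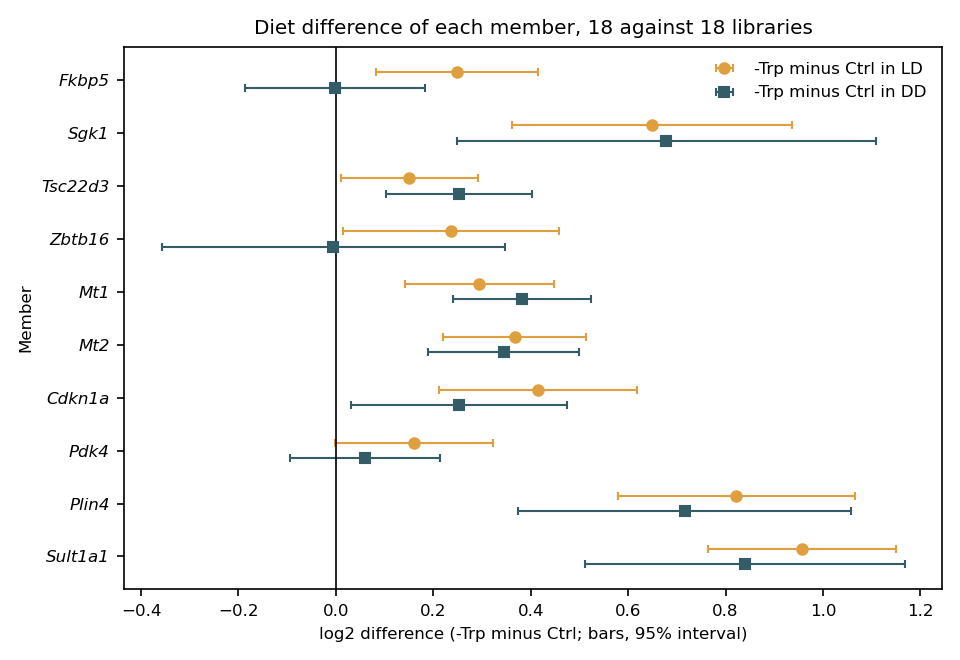
Log2 difference in level between the diets, -Trp minus Ctrl, for each member in LD (circles) and DD (squares), with 95% intervals from limma and 18 libraries a group. Sult1a1, Plin4, Sgk1, Mt1 and Mt2 lie above 0 in both light schedules, and the DD intervals of Fkbp5, Zbtb16 and Pdk4 span 0.

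In constant darkness the diet difference was read in libraries that took no part in the LD contrast. Whether results in DD had a part in the choice of members is not known, and the p-values below carry that limit. Sult1a1 ran from 2.20 to 9.66 FPKM in Ctrl DD with a median of 3.83, and from 4.99 to 19.0 in -Trp DD with a median of 7.54. Its log2 difference was 0.84 ± 0.16 (SE), an adjusted p of 0.00255 by limma, close to that in LD. The ranges overlap, and at CT0 and CT8 all 3 -Trp libraries lay above the Ctrl libraries.

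Plin4 had a median of 1.02 FPKM in Ctrl DD (0.625 to 3.14) and 2.22 in -Trp DD (0.80 to 6.01). The log2 difference was 0.72 ± 0.17 with an adjusted p of 0.00973 by limma. It was clearest at CT8, with 1.91, 2.95 and 0.858 FPKM on Ctrl and 6.01, 3.24 and 4.87 on -Trp.

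Sgk1 had a median of 10.8 FPKM in Ctrl DD (5.86 to 31.5) and 16.6 in -Trp DD (6.77 to 46.1), a log2 difference of 0.68 ± 0.21 with an adjusted p of 0.0330. At CT0 it was at 6.15, 5.88 and 6.04 FPKM on Ctrl and 10.9, 14.3 and 11.8 on -Trp, with no overlap. The call was lost without library 1 of Ctrl DD at CT8 (adjusted p = 0.0521) or CT16 (0.0558), or without library 2 of -Trp DD at CT16 (0.0512). It was also lost with no filter on low values (adjusted p = 0.0621).

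The metallothioneins had smaller differences with tighter spread. Mt1 went from a median of 334 FPKM (216.5 to 423.8) to 405 (303.1 to 514.6), a log2 difference of 0.38 ± 0.070 and an adjusted p of 0.00161. Mt2 went from 198 (102.8 to 249.6) to 232 (175.3 to 302.2), a difference of 0.34 ± 0.076 with an adjusted p of 0.00732. Mt1 was apart and higher on -Trp at CT0, CT4, CT12 and CT16.

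Tsc22d3, with a median of 39.0 FPKM in Ctrl DD and 44.1 in -Trp DD, differed by 0.25 ± 0.074 (adjusted p = 0.0248 by limma). Cdkn1a had a difference of 0.25 ± 0.11 that did not pass (adjusted p = 0.108). At CT12 its order was the opposite, with 6.93, 4.30 and 3.5 FPKM on Ctrl above 2.64, 3.10 and 2.59 on -Trp. Library 1 of Ctrl DD at CT12 stands apart in its cell type markers, and without it Cdkn1a passed (adjusted p = 0.0148). Fkbp5, with medians of 8.41 and 8.02 FPKM, had a difference of -0.0025 (95% interval -0.19 to 0.18), and Zbtb16 of -0.0057 (-0.36 to 0.35). Pdk4 had a difference of 0.061 (-0.093 to 0.21).

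In all, 6 of the 10 members were higher on -Trp in DD by limma, against 7.25% of 14484 genes, and 0 were lower. As the choice of members may have drawn on these data, the count is a description. Scaling to the same sum of FPKM left 5 of the 6, without Tsc22d3, and moved the split of all calls from 1050 higher and 897 lower to 321 and 2024. At CT0 all 3 -Trp libraries lay above all 3 Ctrl libraries in 6 of the 10 members, against 5.49% of all genes. At CT4, CT8, CT12, CT16 and CT20 this held for 3, 4, 2, 1 and 0 members, against 20%, 7.2%, 8.58%, 11.7% and 5.08% of genes. At CT12 1 member had all -Trp libraries below, against 14% of genes. Oligodendrocyte markers moved the other way, with 2 of 6 lower on -Trp and a median of -0.32. Their summed level was 1060 to 3190 FPKM in Ctrl DD and 853 to 2130 in -Trp DD, none was at 0 in all libraries, and their part was not tested.

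The diet difference of no member was shown to differ between DD and LD. The interaction of diet and light passed the threshold in 0 members and 7.02% of 14425 genes by limma, and 0 members had an unadjusted p under 0.05. For Fkbp5 it was -0.25 ± 0.15 (SE), with a 95% interval from -0.55 to 0.048, and for Sult1a1 -0.12 ± 0.20, from -0.51 to 0.28. Both intervals reach below -0.5, so these data do not exclude differences of that size between the light schedules. The comparisons of diet within LD and DD and those of light within each diet share libraries.

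**Figure D3:**
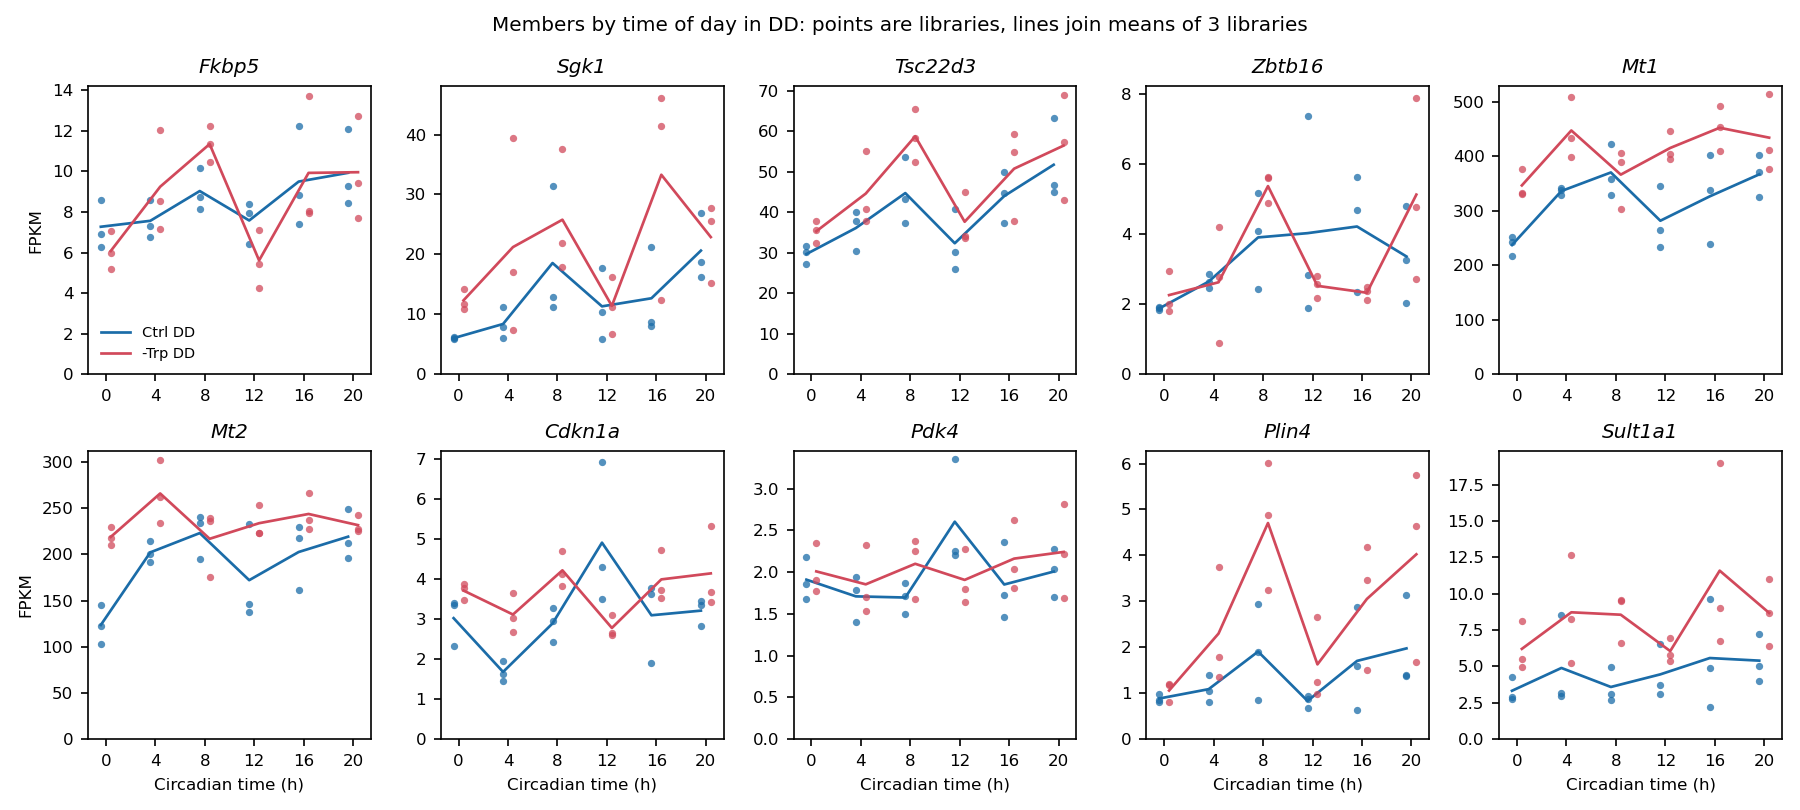
FPKM of the 10 members in DD against circadian time in hours, with a point for each library and lines through the means of 3 libraries for Ctrl DD (blue) and -Trp DD (red). Single libraries of Sgk1, Plin4 and Sult1a1 lie far from the other two of their time, as for Sgk1 at CT4 on -Trp (39.4, 7.30 and 17.0 FPKM).

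Daily rhythms of the members were mostly not called in DD. JTK_CYCLE called 1 of 10 in Ctrl DD, Cdkn1a (p = 0.0147, exact null distribution), against 6.62% of genes, and the call was lost without library 2 or 3 at CT4. In -Trp DD 0 of 10 were called, against 1.81% of genes, and the p-value of every member was 1. A cosinor fit and a fit with time as a factor, both by limma, called 0 genes in either DD group after adjustment, with 1195 and 323 genes at an unadjusted cosinor p under 0.05. The rhythm differed between the diets in DD for 0 members and 0.0345% of genes by limma, and 0 members had an unadjusted p under 0.05.

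Several members varied more between mice of the same time point in DD than in LD. The SD within time points, on the log2(FPKM + 0.5) scale, was 0.22 for Sult1a1 in Ctrl LD and 0.61 in Ctrl DD, a ratio of 2.73, and it was 2.23 times larger in DD for Plin4. On the -Trp diet the largest ratio was that of Sgk1, from 0.36 to 0.75, 2.09-fold. Over all genes the median ratio was 1.06 on Ctrl and 0.887 on -Trp. On the Ctrl diet all 10 members had a ratio over the median, and on -Trp 6 did. Mt1, Mt2, Cdkn1a and Pdk4 were below it on -Trp.

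Some members had their highest library in common with Fkbp5. Within each of the 12 combinations of diet and time, the library with the highest Fkbp5 was also highest for Sgk1 in 9, for Tsc22d3 in 9 and for Plin4 in 9, beside a median of 3 over all genes. In LD these numbers were 6, 1 and 5, with a median of 4. Of the others in DD, Pdk4 shared 7, Zbtb16 and Cdkn1a 6 each, Sult1a1 5, Mt2 4 and Mt1 3. In LD Mt1 and Pdk4 shared 7, Mt2 and Zbtb16 6, Cdkn1a 4 and Sult1a1 0. In -Trp DD at CT16, library 3 was the highest of its 3 in 9 of the 10 members, among them Sult1a1 (19.0 FPKM against 9.0 and 6.74) and Fkbp5 (13.7 against 7.98 and 8.07). This library also had the highest summed markers of mural cells (83.6 FPKM, group median 34.4) and meninges (96.6, median 24.3) in its group, whose part was not tested. Without it the same 6 members were called in the diet comparison. Library 2 of -Trp LD at ZT20 was the lowest of its 3 in 9 of the 10 members.

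**Figure D4:**
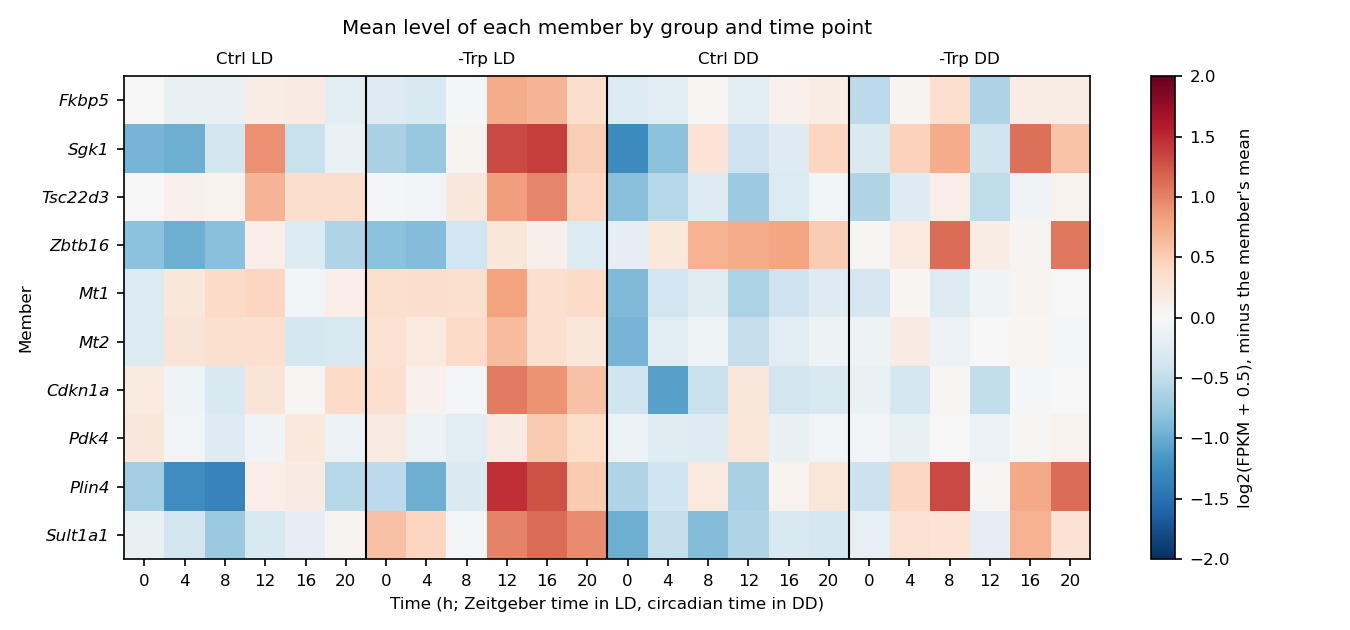
Mean of 3 libraries for each member (rows) in each group and time (columns), as log2(FPKM + 0.5) minus the member's own mean over the 24 columns, red above and blue below. In -Trp LD the columns at 12 and 16 h are red for Fkbp5, Sgk1, Tsc22d3, Cdkn1a, Plin4 and Sult1a1, and in -Trp DD Plin4 and Zbtb16 are reddest at 8 and 20 h.

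The 2 light schedules coincide with a technical split, so their comparison cannot be told apart from it. The sum of FPKM was 403066 or more in 37 libraries, among them all 36 of LD, and 353587 or less in the other 35, all from DD. By limma, 78.8% of genes differed between DD and LD on Ctrl and 79.5% on -Trp, and 6 members were called on each. Zbtb16 was higher in DD, with a median of 2.73 FPKM (1.83 to 7.38) in Ctrl DD against 1.17 (0.577 to 2.94) in Ctrl LD. Its log2 difference was 1.07 ± 0.15 on Ctrl (adjusted p = 6.4e-08) and 0.82 ± 0.16 on -Trp (adjusted p = 3.1e-05).

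Tsc22d3 was lower in DD, by a log2 difference of -0.61 ± 0.081 on Ctrl and -0.51 ± 0.11 on -Trp, and Mt1 by -0.51 ± 0.074 and -0.42 ± 0.070. Cdkn1a and Mt2 were also called lower in DD on both diets. Plin4 was called higher on Ctrl (0.43 ± 0.17, adjusted p = 0.0228), a call lost in 1 fit over all 72 libraries and with FPKM as deposited. Sult1a1 was called lower on -Trp (-0.41 ± 0.14, adjusted p = 0.00911). Fkbp5, Sgk1 and Pdk4 were not called on either diet, but with FPKM as deposited Fkbp5 and Pdk4 were called on -Trp and Sult1a1 on Ctrl. When each library was instead scaled to the same sum of FPKM, the median of all genes moved from -0.021 to 0.32 on Ctrl and from -0.024 to 0.28 on -Trp, Mt2 and Pdk4 turned to higher in DD on both diets, Sult1a1 on Ctrl and Fkbp5 on -Trp, and Zbtb16 and Plin4 were the 2 members called on -Trp. On Ctrl, Fkbp5 and Pdk4 were then called, and Mt1, Mt2 and Cdkn1a lost their calls. The split of called genes on Ctrl went from 5448 higher and 5922 lower to 9358 and 2452, and with FPKM as deposited it was 4524 and 6983. Of 5 neuron markers, 4 were lower in DD on Ctrl, with sums of 1080 to 1450 FPKM in Ctrl LD and 783 to 1650 in Ctrl DD. Of 5 meningeal markers 4 were higher, with sums of 9.24 to 30.2 and 11.3 to 141 FPKM. Also on Ctrl, 4 of 4 ependyma and 5 of 6 oligodendrocyte markers were lower, and 5 of 6 mural markers higher. Of 8 SCN markers, 5 were lower and 3 higher. On -Trp, 0 of 4 ependyma and 4 of 8 SCN markers were called. With 78.8% and 79.5% of all genes called, these counts are not read as a result about cell types. Summed markers of the neighbouring supraoptic and paraventricular nuclei had medians of 1760 FPKM in Ctrl LD and 538 in Ctrl DD. None of these markers was at 0 in all libraries, and their part was not tested.

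The receptor and the proteins around it were read from a list of 13 genes, of which 12 passed the filter. Nr3c1 had medians of 12.2 and 11.8 FPKM in Ctrl LD and -Trp LD and 16.4 and 15.8 in the DD groups, and did not pass the diet test in either light schedule. Hsd11b1, the enzyme that regenerates active glucocorticoid inside cells, fell on the -Trp diet in LD, where its mean was 7.45 ± 1.75 FPKM (SD, n = 18) on Ctrl and 5.07 ± 1.57 on -Trp. The log2 difference was -0.50 ± 0.11 (SE), with an adjusted p of 0.0172 by limma, opposite in sign to the members. In DD Hsd11b1 was at 7.67 ± 3.47 FPKM on Ctrl and 5.25 ± 0.713 on -Trp (-0.44 ± 0.11, adjusted p = 0.0107), and without library 1 of Ctrl DD at CT12 the difference was -0.35 (adjusted p = 0.000636). Hsd11b2, which inactivates the hormone, stayed at 0.144 FPKM or less in all libraries. In DD, the chaperone Hsp90ab1 and the coactivator Ncoa1 were lower on -Trp, by -0.12 ± 0.038 and -0.16 ± 0.047, and the co-chaperone Ptges3 was higher by 0.13 ± 0.042.

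A further 22 genes known to respond to glucocorticoids were listed from general knowledge. Earlier results of these data were known when this and the other lists were made, so the counts are a description. Of the 19 tested in LD, 5 passed the threshold, beside 0.563% of all genes, all of them higher on -Trp: Fam107a (0.41 ± 0.066), Glul (0.23 ± 0.047), Mfsd2a (0.24 ± 0.054), Arl4d (0.45 ± 0.11) and Per1 (0.21 ± 0.052). Glul makes glutamine in astrocytes, Mfsd2a carries lysolipids at the blood-brain barrier, and Per1 is a clock gene that also has a GRE. The median log2 difference of the list was 0.12, beside 0.0034 for all genes. In DD, 4 of 20 passed, beside 7.25% of all genes, all of them higher on -Trp: Sesn1 (0.20 ± 0.031), Klf15 (0.32 ± 0.058), Fam107a (0.31 ± 0.078) and Hif3a (0.36 ± 0.12), with a median of 0.16 beside 0.012 for all genes. Fam107a, an actin-associated protein raised by stress, was the 1 gene called in both. Per1 had the opposite sign in DD (-0.075 ± 0.0614) and was not called there. Its interaction of diet and light passed (-0.281 ± 0.0878, adjusted p = 0.0381 by limma), as the 1 gene of 19 tested, beside 7.02% of all genes. Without library 1 of Ctrl DD at CT12, left out after the values were seen, 7 of 20 passed in DD, with Arl4d (adjusted p = 0.0233 by limma), Glul (0.0242) and Xdh (0.045) added, and 3 genes were called in both.

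**Figure D5:**
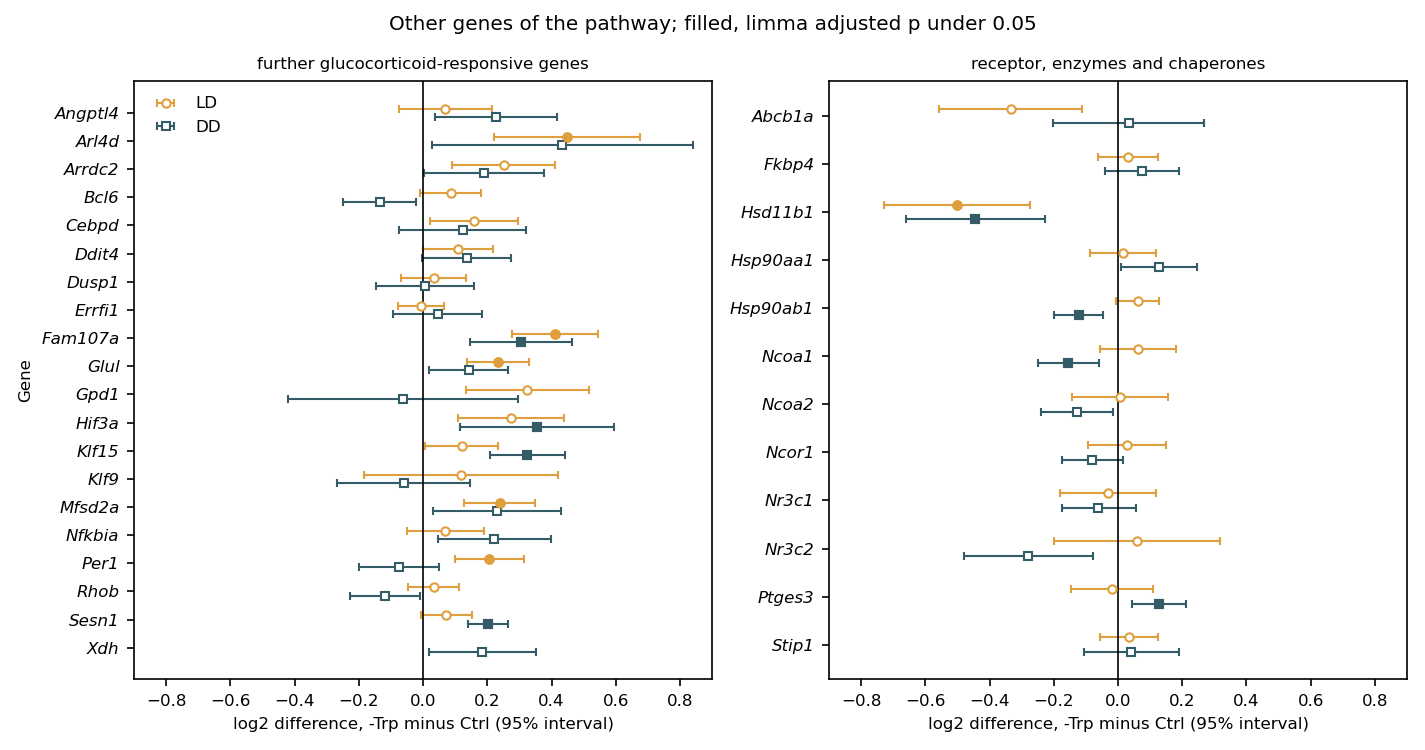
Log2 difference in level between the diets, -Trp minus Ctrl, with 95% intervals, for the other glucocorticoid-responsive genes (left) and the receptor, its enzymes and chaperones (right), in LD (circles) and DD (squares), filled where the adjusted p from limma is under 0.05. The filled points on the left all lie to the right of 0, and Hsd11b1 on the right panel lies to the left of 0 in both light schedules.

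For daily rhythm, JTK_CYCLE called 8 of 19 of these genes in Ctrl LD and 14 of 19 in -Trp LD, then 2 of 20 in Ctrl DD and 0 of 20 in -Trp DD, beside the shares of all genes given above. Mfsd2a had its highest mean at ZT16 on both diets, 14.8 ± 0.972 FPKM (SD, n = 3) on Ctrl and 20.6 ± 2.59 on -Trp. Hif3a, a regulator in the response to low oxygen, was at 1.08 ± 0.24 FPKM at ZT12 on Ctrl and 1.53 ± 0.472 on -Trp, the time at which Zbtb16 and Plin4 were also high.

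Genes that share other regulators with the members were read from further lists. These held 3 metallothionein and zinc genes (Mt3, Mtf1, Slc30a1), 8 other p53 targets, which share that regulator with Cdkn1a, and 7 immediate early genes. Of them limma called 0 for diet in LD and in DD, beside 157 of 14202 genes in LD and 1947 of 14484 in DD. At an unadjusted p under 0.05 the numbers were 0, 0 and 0 in LD and 2, 2 and 0 in DD. All genes had 1848 and 4573. With lists this short, the counts are not read as a difference from all genes. Without library 1 of Ctrl DD at CT12, Mtf1 (-0.10, adjusted p = 0.0289 by limma), Ccng1 (0.15, 0.0177) and Sesn2 (-0.14, 0.0255) passed in DD. Among other PPAR and fasting genes, Pdk2, a relative of Pdk4, was higher on -Trp in LD (0.20 ± 0.037), and Cpt1a, which admits fatty acids to mitochondria, was lower in DD (-0.14 ± 0.038). Of 5 sulfotransferase and sulfate donor genes tested beside Sult1a1, Papss1 and Papss2, which make the sulfate donor, were lower in DD by -0.088 ± 0.026 and -0.14 ± 0.048, and 0 were called in LD, also without adjustment.

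The pattern of each gene over the 24 means of group and time, taken as deviations from its group mean, was compared with those of Fkbp5 and Sult1a1 by Pearson's r over 14424 other genes. Nearest to Fkbp5 were Plin4 (0.92), Rrp8 (0.91), Mfsd2a (0.89), Tsc22d3 (0.88) and Gpt2 (0.88), and Sgk1 ranked 19th (0.83). Nearest to Sult1a1 were C2 (0.89), Ccnd3 (0.88), Hspb1 (0.83), Prodh (0.81) and Nde1 (0.80), with Plin4 at rank 82 and Fkbp5 at rank 92. Mt1 (0.30) and Mt2 (0.24) were far from Fkbp5. The points share libraries and their scaling, and the median r over all genes was 0.0047 for Fkbp5 and -0.0083 for Sult1a1.

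The tissue label was checked against 8 markers of the SCN, among them Vip, Avp and Six6, none of which was at 0 in all libraries. Their summed level varied widely, from 46.1 to 1010 FPKM. That of 4 markers of the neighbouring supraoptic and paraventricular nuclei ran from 23.1 to 2630 FPKM. In DD 1 of these 4, Crh, was called higher on -Trp, and the median log2 difference of the 4 was 0.58. Crh was at 1.01 ± 1.11 FPKM (SD, n = 18) on Ctrl and 2.16 ± 1.21 on -Trp (0.88 ± 0.221, SE, adjusted p = 0.0138 by limma). The interaction of diet and light passed in 2 of the 4, Crh (0.855 ± 0.248, adjusted p = 0.0251) and Oxt (1.14 ± 0.355, adjusted p = 0.0358). The part of the dissection in the values of the members was not tested. Library 1 of Ctrl DD at CT12 had the highest endothelial, mural, meningeal, oligodendrocyte, neuron, astrocyte and microglia sums of its group. For mural cells it held 170 FPKM against a group median of 35.2. Over all genes it also stood apart. Its highest correlation with another library was 0.924, and the next lowest such value was 0.972 (library 2 of -Trp DD at CT4). The main fits kept it. Of the other marker lists, limma called 1 mural and 1 astrocyte marker lower on -Trp in LD, and in DD 1 astrocyte marker higher and 1 each of the mural, astrocyte, microglia and neuron markers lower, and 0 of the choroid plexus, ependyma, meninges, blood and SCN markers in either. Zbtb16 (7.38 FPKM), Cdkn1a (6.93) and Pdk4 (3.35) were highest of their group in library 1 of Ctrl DD at CT12.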

How the data were processed

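RNA-seq of the SCN was read from 72 libraries, 3 for each of 6 time points in 4 groups. Per the study's methods and the submitters' processing notes, the authors trimmed paired-end reads with Trimmomatic, used TopHat for alignment to mm10 and Cufflinks for the FPKM of each gene (versions not given in the sources used here). The deposited tables hold FPKM and no read counts, so depth is unknown and precision comes from the spread between libraries. Of the symbols, 537 rows share a symbol with another row, none of them a member. The authors' liver libraries were not analysed here. Results for a gene of the list of PPAR and fasting genes are not reported here.

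Columns were placed in the order of the study's table of oscillating genes. JTK_CYCLE was recomputed in Python 3.11.15 (numpy 2.4.6, pandas 2.3.3) on FPKM as deposited, with a 24 h period, adjustment over 6 lags and p under 0.05, for genes whose group mean was 0.5 FPKM or more. Levels and differences in rhythm were tested with limma 3.58.1 (R 4.3.3). Its input was log2(FPKM + 0.5), scaled first by median-of-ratios factors (0.909 to 1.08), for genes whose mean was 0.5 FPKM or more, with Benjamini-Hochberg adjustment over all of them. A fold on this scale understates changes of low genes such as Plin4. Both scripts were tested on simulated data. Gene positions are from GENCODE M21, promoters from RefSeq, and figures were drawn with matplotlib 3.10.9.

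The members and lists were chosen with earlier results of these data known. Named genes were all members, up to 4 genes per list and comparison by adjusted p, and the 5 genes nearest to Fkbp5 and to Sult1a1 (Per1, and the genes called in DD without library 1 of Ctrl DD at CT12, were added after their values were seen). The alternatives were the columns as named, other scalings, pseudocounts (0.1 and 1) and filters (none, or a mean of 1 FPKM), the replicate block, other rhythm tests, 1 fit for all 72 libraries and leaving out each library.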

Additional observations from a re-analysis of the deposited data

How the results depend on the processing

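Over the single-member differences, pseudocounts of 0.1 and 1, the stricter filter, no filter, 1 fit for all 72 libraries and the replicate block left the direction in place in every case but Fkbp5 in DD, which is at 0 (5.7e-05 with a pseudocount of 1). The replicate block, chosen because the labels number the libraries of a time point, called 9 and 8 members as rhythmic in Ctrl LD and -Trp LD and 1 and 0 in the same order in DD, 0 and 0 for rhythm by diet in LD and DD, 6 and 6 for level by diet, 6 and 6 for light, and 0 for the interaction. The labels show nothing more than a number that such libraries share. Between the diets, deviations of libraries with the same number had a median correlation of -0.00046 in LD (4 of 18 pairs over 0.1). In DD it was 0.172 (12 of 18, highest 0.449). Pairs with different numbers were not compared, so whether libraries of a number share more was not tested. Depth is unknown, so what it limits could not be stated.

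The column order was the choice that mattered most, and the cause of the changes under it is the exchange of libraries between groups. With the columns as named, the members called for rhythm were 0 in -Trp LD, then 0 and 6 in DD on Ctrl and -Trp, 9 for rhythm by diet in LD and 3 in DD, 0 for light on Ctrl and 4 for the interaction. The genes called were then 8578, 467, 6135 and 1448 for rhythm in the 4 groups, 7518 and 4993 for rhythm by diet, 9474 and 10177 for level by diet in LD and DD, 815 for light on Ctrl and 11100 for the interaction. The diet difference in LD turned to -0.25 for Fkbp5, -0.22 for Sgk1, -0.50 for Tsc22d3, -0.37 for Mt1, -0.18 for Mt2, -0.36 for Cdkn1a, -0.11 for Pdk4, -0.35 for Plin4 and -0.58 for Sult1a1. In DD it turned to -0.28 for Sgk1, -0.11 for Pdk4, -0.74 for Plin4 and -0.16 for Sult1a1. The light difference on Ctrl turned to -0.22 for Fkbp5, -0.20 for Sgk1 and -0.11 for Plin4. On -Trp it turned to -0.26 for Sgk1, 0.51 for Tsc22d3, -1.04 for Zbtb16, 0.49 for Mt1, 0.14 for Mt2, 0.29 for Cdkn1a, -0.49 for Plin4 and 0.29 for Sult1a1.

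Adjusting the JTK_CYCLE p-values left 0 members on Ctrl in LD, 5 on -Trp in LD and 0 on Ctrl in DD. A limma cosinor called 2 in Ctrl LD and 0 in Ctrl DD, and time as a factor 4 in -Trp LD and 0 in Ctrl DD. With the same sum of FPKM, 2 members were called for light on -Trp, and the light difference on Ctrl turned to 0.14 for Mt2, 0.30 for Pdk4 and 0.049 for Sult1a1, and on -Trp to 0.12 for Fkbp5, 0.080 for Mt2 and 0.17 for Pdk4. With FPKM as deposited it turned to -0.048 for Fkbp5 and -0.075 for Sgk1 on Ctrl and to -0.036 for Sgk1 on -Trp. Of all genes, 32, 179, 0 and 0 were rhythmic in the 4 groups after adjustment, 103, 390, 0 and 0 by the cosinor and 80, 91, 0 and 0 with time as a factor. For rhythm by diet in DD, a joint fit over the 72 libraries called 13 genes in place of 5. The cause was not tested. In LD by diet, where 6 members passed and nothing rests on the count, the joint fit left out Sgk1, FPKM as deposited Mt1, the same sum of FPKM Cdkn1a, and no filter both Cdkn1a and Mt1.

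Leaving out 1 library gave 6 to 8 rhythmic members on Ctrl and 7 to 8 on -Trp in LD, and 0 to 2 on Ctrl in DD (0 without library 2 or 3 at CT4, 2 without library 3 at CT12), 4 to 6 members past the threshold by diet in LD and 5 to 7 in DD, and 6 to 7 for light on Ctrl. The other counts of members stayed as they were. The genes called ranged from 1125 to 2473 for rhythm in Ctrl LD (2473 without library 2 at ZT20), from 614 (without library 3 at CT0) to 1222 in Ctrl DD, from 174 to 563 in -Trp DD (without library 2 and 1 at CT0, and 496 without library 2 at CT4) and from 1 to 8 for rhythm by diet in DD. For level by diet they ranged from 106 to 261 in LD (261 without library 2 of Ctrl LD at ZT20) and from 1180 to 2794 in DD (1180, 1265 and 1281 without -Trp DD library 3 at CT12, 1 at CT0 and 1 at CT20). Directions that turned were those near 0: Fkbp5 by diet in DD (-0.037 to 0.034, the latter without library 3 of -Trp DD at CT12), Zbtb16 (-0.072 to 0.081, the latter without library 1 of Ctrl DD at CT12), Sgk1 by light on Ctrl (from -0.060 without library 2 of Ctrl DD at CT8 to 0.12) and on -Trp (from -0.060 without library 1 of -Trp DD at CT4 to 0.16), and Pdk4 on Ctrl (-0.047 to 0.021, the latter without library 2 of Ctrl DD at CT16).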
